A study of Mus musculus with 170 samples.

Results

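Virtual memory CD8 T cells from the spleens of old mice were compared with the same sorted population from young mice. The comparison used 10 of the 170 libraries of a mouse ageing series, 5 old and 5 young, and every gene of the deposited count table entered it. The mice were on a C57/Bl6 background. The young animals were 2 months old and the old animals 22 to 24 months old, and all were healthy, with no genetic change or treatment in the labels. Each library was made from cells pooled from 5 animals and isolated by fluorescence-activated cell sorting, so the spread between libraries is that between pools and not between single mice. The labels used here give neither the sort gates nor the sex of the animals. The age changes were also set against those of 2 other sorted CD8 populations of the series, of the same ages and pool size: CD8 memory cells, with 3 young and 3 old libraries, and CD8 naive cells, with 4 young and 3 old. RNA was read near the 3' end of poly(A) transcripts, and values are given as CPM, the counts scaled to a common library size.

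Virtual memory cells are CD8 T cells that have the surface look of memory cells, with high CD44 and CD122, without having met a foreign antigen. They arise in the steady state under the influence of IL-15, which signals through CD122 (encoded by Il2rb), and depend on the transcription factor Eomes. They are known to make up a growing share of the CD8 pool in old mice, and are distinguished from antigen-experienced memory cells by low surface CD49d, the integrin chain encoded by Itga4. Cytotoxic T cells kill by releasing perforin, which opens membranes, and granzymes, proteases that then enter the target cell.

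The genes of the killing machinery held several of the highest age differences in these cells, so the promoters of 3 granzyme genes and of perforin are shown first. Each sequence is the 250 bases before the transcription start in RefSeq on build GRCm38.p6, 5' to 3' on the gene's own strand. Capitals mark matches, on either strand, to 4 short motifs of factors that act in cytotoxic T cells: the T-box motif AGGTGT, the Runx motif TGTGGT, the AP-1 motif TGANTCA and the STAT motif TTCNNNGAA.
Gzmb promoter, chr14:56262335-56262584, minus strand: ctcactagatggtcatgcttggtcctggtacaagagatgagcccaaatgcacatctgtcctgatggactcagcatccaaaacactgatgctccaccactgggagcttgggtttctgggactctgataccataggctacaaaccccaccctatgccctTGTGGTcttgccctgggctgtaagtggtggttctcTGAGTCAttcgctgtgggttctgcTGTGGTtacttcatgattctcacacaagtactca
Gzmk promoter, chr13:113180966-113181215, minus strand: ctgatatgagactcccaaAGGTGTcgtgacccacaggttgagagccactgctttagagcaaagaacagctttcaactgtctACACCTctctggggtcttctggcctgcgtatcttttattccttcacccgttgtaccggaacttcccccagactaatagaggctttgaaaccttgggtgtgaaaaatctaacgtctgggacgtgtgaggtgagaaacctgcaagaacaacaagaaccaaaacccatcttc
Gzmm promoter, chr10:79688770-79689019, plus strand: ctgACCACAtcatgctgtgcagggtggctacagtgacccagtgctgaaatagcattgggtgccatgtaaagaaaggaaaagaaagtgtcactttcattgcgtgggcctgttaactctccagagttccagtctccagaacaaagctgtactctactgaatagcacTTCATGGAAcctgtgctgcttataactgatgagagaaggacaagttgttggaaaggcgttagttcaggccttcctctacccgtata
Prf1 promoter, chr10:61297586-61297835, plus strand: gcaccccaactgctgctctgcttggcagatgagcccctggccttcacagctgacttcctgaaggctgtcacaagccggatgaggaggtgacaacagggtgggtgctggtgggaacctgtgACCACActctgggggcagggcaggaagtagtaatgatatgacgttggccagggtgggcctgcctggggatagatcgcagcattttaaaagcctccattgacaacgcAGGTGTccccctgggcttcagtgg
The Gzmb window holds 2 Runx matches and 1 AP-1 match, the Gzmk window 2 T-box matches, the Gzmm window 1 Runx and 1 STAT match, and the Prf1 window 1 T-box and 1 Runx match. No match overlaps another in these windows. Of the 32851 promoters of this length in the table, 11.8% hold the T-box motif, 14.0% the Runx motif, 6.75% the AP-1 motif and 7.02% the STAT motif. Among the promoters of 7403 tested genes, the shares were 9.09%, 11.0%, 3.76% and 6.07% in the same order. A match describes letters in a window and says nothing of binding, and no sequence feature was measured here. On the same build, GENCODE M21 places Gzmb at chr14:56258838-56262260, Gzmm at chr10:79689020-79695261 and Prf1 at chr10:61297833-61304680. It gives Gzmk a span of chr13:113171608-113225908 that contains the window shown. The bases next to the start used here were found in GENCODE transcripts of Gzmm and Prf1 but not in those of Gzmb and Gzmk.

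Library totals ran from 1433143 to 6821886 counts in the young and from 1539125 to 3510149 in the old virtual memory libraries, and 10346 of 55484 genes in the table passed the filter on low counts. The sorted identity was checked with its markers. Cd8a, the co-receptor chain that defines CD8 T cells, was at 507, 536, 499.8, 458 and 415 CPM in young replicates 1 to 5 and 375, 582, 489, 439.7 and 534 CPM in old replicates 1 to 5, and the groups overlapped (log2 fold change 0.00, SE 0.15, adjusted p = 1). Eomes was present at 118 to 253 CPM in the young libraries and 199 to 271 CPM in the old, with a log2 difference of 0.28 that did not pass the test (adjusted p = 0.45). Il2rb was at 515, 603, 485, 379.8 and 543 CPM in young replicates 1 to 5 and 693, 821, 748, 560.0 and 741 CPM in old replicates 1 to 5. The old values lay mostly above the young ones, but the highest young library (replicate 2) exceeded the lowest old one (replicate 4) and the difference did not pass the test (log2 fold change 0.50, SE 0.16, adjusted p = 0.0979). It passed without old replicate 4 (0.57, adjusted p = 0.048) and in DESeq2. Of 13 virtual memory identity genes, 12 were tested and none passed the threshold. Their median log2 difference was 0.34, against 0.01 over all genes tested. In edgeR 6 of the 12 had an unadjusted p under 0.05, DESeq2 called 3 higher and 1 lower, and 3 passed in edgeR when old replicate 4 was left out. Itga4 was at 38.9, 44.3, 53.3, 78 and 43 CPM in young replicates 1 to 5 and 22, 5.08, 30.9, 118 and 9.39 CPM in old replicates 1 to 5. It was therefore lower in 4 of the 5 old libraries than in every young one and highest of all in old replicate 4 (log2 fold change -0.50, SE 0.56, adjusted p = 0.70). Without that library the difference passed the threshold (-1.56, adjusted p = 0.0313).

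Old replicate 4 stood apart from the other libraries in RNA of other cell types. Immunoglobulin genes gave 6.55% of its counts, against at most 0.210% in the other old libraries, and globin genes 1.23%, against at most 0.220%. Summed CPM of plasma cell markers reached 2910.4 in this library and 87.7 to 159 in the other old ones, and CD4 T cell markers reached 272 against 54.7 to 95.5. A different feature was shared by all 10 libraries: neutrophil markers summed to between 8568 and 15612 CPM. All 11 of them were tested and none passed the threshold between the ages in edgeR or DESeq2 (1 at an unadjusted p under 0.05); the most abundant, S100a8, averaged 3804 ± 339 CPM in the young libraries and 4373 ± 909 CPM in the old (SD, n = 5 each). List counts below are therefore also given without old replicate 4 where leaving it out changes them, and the part of these RNAs in the results was not tested.

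**Figure D1:**
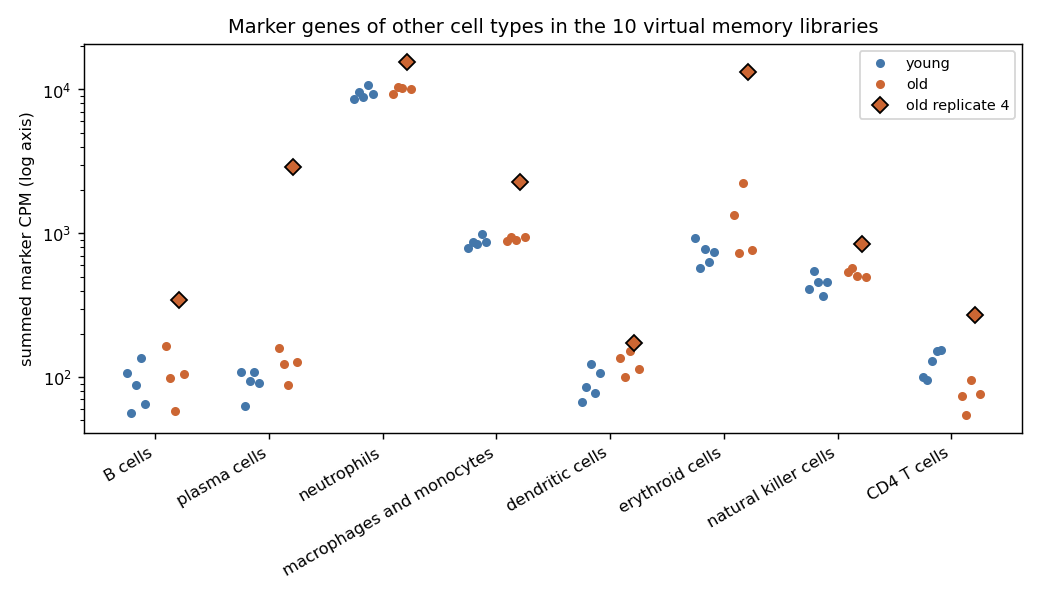
Summed CPM of marker genes of 8 other cell types (x axis) in each of the 10 virtual memory libraries (y axis, log scale). Points are libraries, coloured by age, and the diamond is old replicate 4, which is the highest library for plasma cell markers at 2910.4 CPM, while neutrophil markers lie between 8568 and 15612 CPM in every library.

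With age, 397 of the 10346 genes tested changed (3.84%, edgeR quasi-likelihood test, Benjamini-Hochberg adjusted p under 0.05). Of these, 278 were higher in old cells (2.69% of genes tested) and 119 lower (1.15%). In 306 of the 397, no old library overlapped any young one, and 558 genes of all tested (5.39%) had this property. Without old replicate 4, 432 genes were called, 292 higher and 140 lower, and 337 genes were called both with and without it. The labels do not name the animals of each pool, so the p-values measure the spread between these libraries only. In sorted bulk RNA, a lower level can mean fewer cells with the transcript or less of it in each cell, and these cannot be told apart.

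The highest change among well-measured genes was in Fgl2, which encodes a secreted, fibrinogen-like regulator of immune responses (chr5:21372642-21378374 on GRCm38). Fgl2 was at 7, 2.9, 4.88, 6.8 and 9.6 CPM in young replicates 1 to 5 and 161, 200.2, 110.5, 143 and 183 CPM in old replicates 1 to 5. Every old library was more than 10 times as high as every young one, and the means were 6.24 ± 2.51 CPM in the young libraries and 159.6 ± 35 CPM in the old (SD, n = 5 each) (log2 fold change 4.61, SE 0.26, adjusted p = 8.05e-08). At the other end was Myb, a transcription factor of early lymphocyte development and of stem-like memory T cells (chr10:21124935-21160984). Myb was at 122, 106, 63.5, 73 and 35.2 CPM in young replicates 1 to 5 and 4.4, 3.81, 5.91, 7.4 and 1.17 CPM in old replicates 1 to 5. The lowest young library lay above the highest old one, and the difference was the lowest of the genes that met the naming rule (log2 fold change -4.13, SE 0.39, adjusted p = 1.35e-05).

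**Figure D2:**
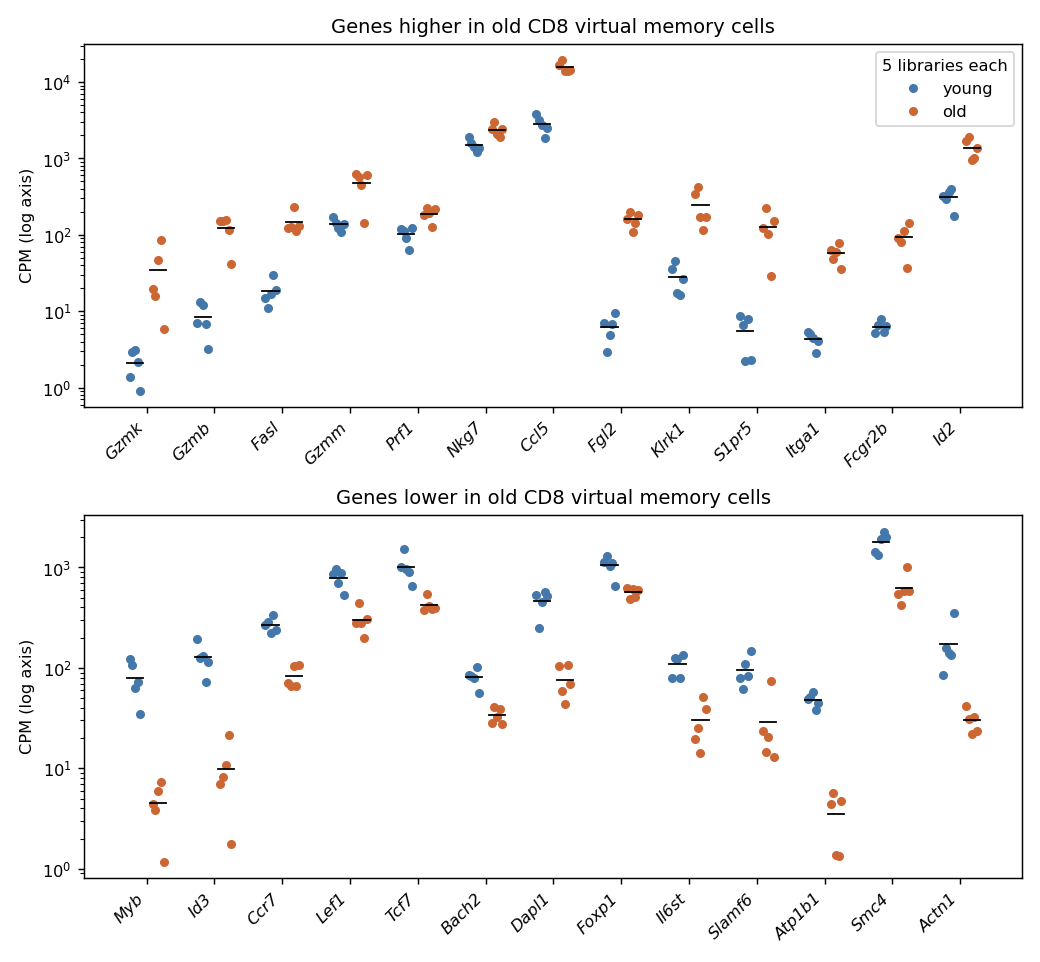
CPM (y axis, log scale) of selected genes in each of the 5 young and 5 old virtual memory libraries. Points are libraries and bars are group means; the upper panel holds genes higher in old cells, where Gzmm and Nkg7 overlap between the ages, and the lower panel genes lower in old cells, where Slamf6 overlaps.

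Several genes of the killing machinery rose. Of 16 cytotoxic effector genes tested, 8 were higher in old cells and none lower, against 2.69% of all genes called higher, and the list's median log2 difference was 0.66. This and the other gene lists were chosen with earlier results of these data known. Their counts beside the share of all genes therefore describe the members and are no test of the list. Without old replicate 4 the count was 9, and it ran from 5 to 10 when each library was left out in turn. Granzyme B, the main death-inducing protease of killer cells, was at 7, 13.1, 12, 6.8 and 3.2 CPM in young replicates 1 to 5 and 153, 151, 156, 116 and 41.1 CPM in old replicates 1 to 5. Old replicate 5 was the lowest old library, still above every young one (log2 fold change 3.93, SE 0.38, adjusted p = 1.78e-05). Granzyme K, typical of a less cytolytic type of CD8 effector that accumulates with age, was at 1.37, 2.9, 3.11, 2.15 and 0.914 CPM in young replicates 1 to 5 and 19.7, 15.9, 46.8, 84.7 and 5.87 CPM in old replicates 1 to 5. The old values spread over more than 10-fold, with replicate 4 the highest (log2 fold change 4.10, SE 0.64, adjusted p = 0.00141). Fasl, the ligand that triggers the death receptor Fas, was at 15.1, 10.9, 16.9, 30.1 and 19.2 CPM in young replicates 1 to 5 and 124, 128, 231, 112 and 130.3 CPM in old replicates 1 to 5. The groups did not overlap, and old replicate 3 stood well above the other old libraries (log2 fold change 2.96, SE 0.27, adjusted p = 9.32e-06). Granzyme M was already abundant in young cells. It was at 173, 144, 124, 108 and 139.9 CPM in young replicates 1 to 5 and 617, 568, 447, 141 and 613 CPM in old replicates 1 to 5. Old replicate 4 fell inside the young range, and the other old libraries lay above it (log2 fold change 1.79, SE 0.30, adjusted p = 0.00253).

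Perforin and other granule proteins had smaller log2 differences than granzymes B, K and M, which was not tested between genes. Prf1 was at 118, 113, 91.9, 63.4 and 123 CPM in young replicates 1 to 5 and 183, 228, 192, 126 and 216 CPM in old replicates 1 to 5. All old values exceeded the young ones, by a small margin in old replicate 4 (log2 fold change 0.89, SE 0.20, adjusted p = 0.0195), and the call was lost without young replicate 3 or old replicate 5. Nkg7, a membrane protein of cytotoxic granules, had a log2 fold change of 0.66 (adjusted p = 0.0407) and was called in only 3 of the 10 fits that each left out 1 library. Cst7, the granule protease inhibitor cystatin F, gave 0.67 (adjusted p = 0.0456, called in 2 of the 10 such fits). Serpinb9, an intracellular inhibitor that protects killer cells from their own granzyme B, rose by 1.47 on the log2 scale (adjusted p = 0.0103). The other 8 tested members had log2 differences between -0.27 and 0.67, among them Gzma, at 16.1 to 72.6 CPM in the young libraries and 4.09 to 76.9 CPM in the old (log2 fold change -0.27, SE 0.58, adjusted p = 0.86). Serpina3g, a serine protease inhibitor of activated T cells that was not on the list, was at 4.56, 2.9, 1.33, 4.65 and 3.66 CPM in young replicates 1 to 5 and 46.6, 28, 36.4, 126 and 21.7 CPM in old replicates 1 to 5. No young library reached any old one, and old replicate 4 was far above the rest (log2 fold change 3.81, SE 0.48, adjusted p = 0.000202).

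Among cytokine and chemokine genes 1 of 12 tested rose, against 2.69% of all genes called higher. A single call is no result about the list. Ccl5, the chemokine RANTES that memory T cells hold ready as message, was among the most abundant transcripts of these cells. It was at 3826, 3219.6, 2736, 1843 and 2524 CPM in young replicates 1 to 5 and 16689, 19165, 13899, 13762 and 14479 CPM in old replicates 1 to 5. The lowest old library held more than 3 times the highest young one (log2 fold change 2.46, SE 0.21, adjusted p = 4.46e-06). Ccl4, a related chemokine, differed by 0.49 on the log2 scale (adjusted p = 0.70). Ifng, the effector cytokine interferon gamma, had a log2 difference of 2.61 that did not pass the threshold (adjusted p = 0.0659), with 2.29 to 32.2 CPM in the young libraries and 8.9 to 229.6 CPM in the old.

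Some receptors shared with natural killer cells rose: 5 of 19 tested were higher and none lower, against 2.69% of all genes called higher. The count was 4 to 7 when each library was left out in turn and 6 without old replicate 4. The median log2 difference was 0.47. Klrk1 encodes NKG2D, an activating receptor for stress ligands. It was at 35.6, 45, 17.3, 16.1 and 26.1 CPM in young replicates 1 to 5 and 343, 423, 170.5, 116 and 174 CPM in old replicates 1 to 5. Old replicate 4 was the lowest of the old libraries and still more than 2 times the highest young one (log2 fold change 3.14, SE 0.37, adjusted p = 9.11e-05). Fcgr2b, the inhibitory receptor for the Fc part of IgG, was at 5.17, 6.53, 7.99, 5.37 and 6.4 CPM in young replicates 1 to 5 and 91.8, 79.4, 114, 37 and 141 CPM in old replicates 1 to 5. The old libraries lay above all young ones, and old replicate 4 was the lowest of them (log2 fold change 3.90, SE 0.32, adjusted p = 4.46e-06). Also higher were Klrc1 (2.03, adjusted p = 0.0072), which encodes the NKG2A chain, Slamf7 (1.20, adjusted p = 0.00674) and Klre1 (1.81, adjusted p = 0.0244); the call for Klre1 held in 6 of the 10 fits that each left out 1 library. Klrd1, the partner chain of NKG2A and the most abundant member, did not differ past the threshold (-0.12, adjusted p = 0.81). Summed markers of natural killer cells themselves were 366 to 550.3 CPM in the young libraries (median 462). They were 848 CPM in old replicate 4 and 496 to 570.1 CPM in the other old libraries (median of all old libraries 541). The median log2 difference of these markers was 0.52. None of the 8 tested passed the threshold in edgeR (4 at an unadjusted p under 0.05, 1 called without old replicate 4, and 2 called by DESeq2). The part of such RNA in the receptor changes was not tested.

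Of the inhibitory receptors and genes linked to exhaustion, 4 of 13 tested were higher and none lower, against 2.69% of all genes called higher. The list's median was 0.78. Prdm1, the transcription factor Blimp-1, was at 3.2 to 5.63 CPM in the young libraries and 17.6 to 41 CPM in the old (log2 fold change 2.91, SE 0.31, adjusted p = 4.11e-05). Entpd1, the ectoenzyme CD39 that degrades extracellular ATP, had a log2 fold change of 2.62 (adjusted p = 2.1e-05), and Cd160, a receptor of cytotoxic lymphocytes, one of 1.30 (adjusted p = 0.000879). The collagen receptor gene Lair1 had one of 0.87 (adjusted p = 0.0283), called in 3 of the 10 fits that each left out 1 library. The classical checkpoint receptors Pdcd1, Lag3, Tigit, Havcr2 and Ctla4 did not reach the count filter and were not tested at this depth. Without the filter the list had 8 genes called higher.

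Of the transcription factors of effector cells, 3 of 15 tested rose and none fell (4 and none without old replicate 4). Their median log2 difference was 0.62, and 2.69% of all genes were called higher. Id2, which restrains E-protein factors and favours effector fate, was at 326, 298, 363, 403 and 179 CPM in young replicates 1 to 5 and 1670.5, 1897, 954, 1004 and 1366 CPM in old replicates 1 to 5. The groups were fully separate (log2 fold change 2.13, SE 0.24, adjusted p = 6.52e-05). Bhlhe40, a repressor linked to cytokine production and tissue-resident T cells, was at 13.4, 2.18, 34.6, 47.6 and 12.3 CPM in young replicates 1 to 5 and 212, 76.3, 547, 449.8 and 161 CPM in old replicates 1 to 5. It varied widely inside both ages, with replicate 2 lowest in each (log2 fold change 3.68, SE 0.59, adjusted p = 0.00178). Zeb2, a factor of terminal effector cells, reached 11.1 to 47.1 CPM in the old libraries against 2.18 to 4.41 in the young (log2 fold change 2.60, SE 0.41, adjusted p = 0.00168), with old replicate 4 the highest. Tbx21, the T-box factor T-bet, was at 36.5 to 142 CPM in the young libraries and 77.3 to 163 CPM in the old and did not differ past the threshold (0.71, adjusted p = 0.20).

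Most genes of naive and stem-like T cells fell. Of 22 tested, 14 were lower in old cells and none higher, against 1.15% of all genes called lower. As this list too was chosen with earlier results of these data known, the count is no test of it. The list's median log2 difference was -1.32, and 13 to 16 were called when each library was left out in turn, 16 of them without old replicate 4. Id3, the counterpart of Id2 in naive and long-lived memory cells (chr4:136143497-136145755), was at 193, 126, 131, 73 and 115 CPM in young replicates 1 to 5 and 7.04, 8.26, 10.9, 21.5 and 1.76 CPM in old replicates 1 to 5. Every old library was lower than every young one (log2 fold change -3.73, SE 0.40, adjusted p = 4.26e-05). Lef1 and Tcf7 encode related factors that act with the Wnt pathway and keep T cells able to self-renew. Lef1 was at 854, 961, 696, 884 and 535 CPM in young replicates 1 to 5 and 279.5, 448, 279.6, 198 and 306 CPM in old replicates 1 to 5, and Tcf7 at 1010.1, 1540.5, 961, 899.7 and 654 CPM in young replicates 1 to 5 and 381, 542, 412, 383 and 392 CPM in old replicates 1 to 5. Both were lower in all old libraries than in any young one, without reaching low levels (log2 fold change -1.38, SE 0.21, adjusted p = 0.00131 for Lef1; log2 fold change -1.26, SE 0.20, adjusted p = 0.00178 for Tcf7). Ccr7, the receptor that leads T cells into lymph nodes, was at 265, 286, 221, 338 and 239 CPM in young replicates 1 to 5 and 71.3, 66.1, 105, 66.6 and 106 CPM in old replicates 1 to 5. The groups did not overlap (log2 fold change -1.70, SE 0.19, adjusted p = 5.21e-05).

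Further naive-type genes were also called lower, with log2 differences from -2.61 to -0.89. Dapl1, a gene of unclear function that is abundant in naive CD8 cells, was at 537, 251.9, 451, 568 and 526 CPM in young replicates 1 to 5 and 104, 59.1, 43.6, 106 and 68.7 CPM in old replicates 1 to 5. All old values were lower (log2 fold change -2.61, SE 0.27, adjusted p = 2.93e-05). Actn1, the cytoskeletal crosslinker alpha-actinin, was at 86 to 349 CPM in the young libraries and 21.8 to 41.7 CPM in the old (log2 fold change -2.52, SE 0.33, adjusted p = 0.000242). Bach2, a repressor that restrains effector differentiation, had a log2 fold change of -1.27 (adjusted p = 0.00116) and Foxp1, a quiescence factor, one of -0.89 (adjusted p = 0.00946). Also lower were Il6st (-1.87, adjusted p = 0.00177) and Il6ra (-0.98, adjusted p = 0.00674), the signalling and binding chains of the IL-6 receptor, Rapgef4 (-1.76, adjusted p = 0.000739), Tdrp (-1.22, adjusted p = 0.00853) and Slamf6 (-1.74, adjusted p = 0.0211), the last of which was called in 5 of the 10 fits that each left out 1 library. The other 8 tested members had log2 differences between -1.97 and 0.11. The receptor for IL-7, Il7r, was the most abundant of them at 710.3 to 1498 CPM in the young libraries and 984 to 1467 CPM in the old and did not differ past the threshold (0.11, adjusted p = 0.83).

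**Figure D3:**
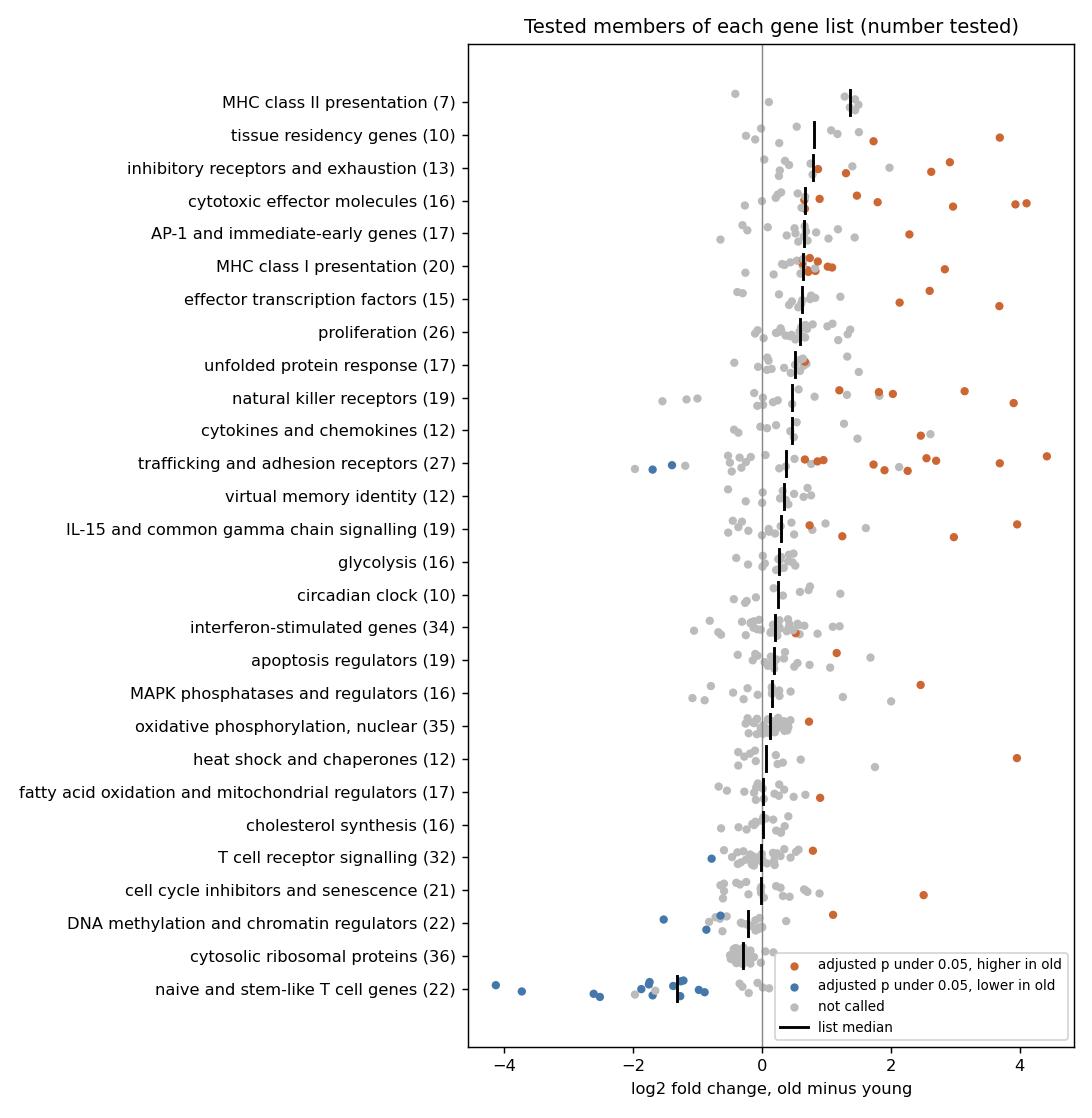
Log2 fold change, old minus young (x axis), of each tested member of the gene lists (y axis, 1 line a list) in virtual memory cells. Points are genes, coloured where the adjusted p was under 0.05 and grey where not, and the bar is the list's median; the cytotoxic list has 8 members called higher and the naive and stem-like list 14 called lower.

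Receptors for trafficking and adhesion changed in both directions, with 10 of 27 tested higher and 2 lower. These counts were 10 and 5 without old replicate 4, and 7 to 10 and 1 to 5 when each library was left out in turn. Over all genes tested, 2.69% were called higher and 1.15% lower. S1pr5, a sphingosine-1-phosphate receptor that lets natural killer and effector cells leave tissues, was at 8.67, 6.53, 2.22, 7.88 and 2.29 CPM in young replicates 1 to 5 and 123, 226, 103, 28.9 and 150.3 CPM in old replicates 1 to 5. Old replicate 4 was the lowest old library and still above every young one (log2 fold change 4.42, SE 0.48, adjusted p = 5.21e-05). Itga1 encodes CD49a, the collagen-binding integrin chain of tissue-resident T cells. It was at 5.33, 5.08, 4.44, 2.86 and 4.11 CPM in young replicates 1 to 5 and 63.4, 48.9, 59.6, 79.3 and 35.2 CPM in old replicates 1 to 5. The old libraries were close to each other and far from the young (log2 fold change 3.69, SE 0.27, adjusted p = 1.29e-06). The inflammatory chemokine receptors Ccr2 (2.26, adjusted p = 0.00199) and Cxcr6 (1.73, adjusted p = 0.000761) were higher, as was Ly6a, the surface antigen Sca-1, with 27.2 to 42.1 CPM in the young libraries and 96.3 to 313 CPM in the old (log2 fold change 2.55, SE 0.29, adjusted p = 6.17e-05). Integrin genes Itgal (0.86), Itgb1 (0.95) and Itgb2 (0.66) also passed, with adjusted p of 0.0145, 0.036 and 0.0203; the calls for Itgb1 and Itgb2 held in 4 of the 10 and 6 of the 10 fits that each left out 1 library. Itgax, the CD11c chain that is also a dendritic cell marker, differed by 2.70 (adjusted p = 0.0165). Summed dendritic cell markers were 67.1 to 124 CPM in young and 101 to 174 CPM in old libraries; without old replicate 4, the highest of them, Itgax differed by 2.69 (adjusted p = 0.0218), and its call was lost without young replicate 1 or 3. Lower, besides Ccr7, was Cxcr5, the receptor that guides cells to follicles (log2 fold change -1.40, SE 0.35, adjusted p = 0.034, called in 4 of the 10 such fits).

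Genes that damp IL-15 and related cytokine signals were among those that rose. Of 19 genes of IL-15 and common gamma chain signalling tested, 4 were higher and none lower (5 and none without old replicate 4). Their median was 0.29, and 2.69% of all genes were called higher. Socs2, a suppressor of cytokine signalling induced by STAT5, was at 5.02, 3.63, 8.88, 6.09 and 5.03 CPM in young replicates 1 to 5 and 222, 104, 55.5, 33.6 and 30.5 CPM in old replicates 1 to 5. The old values spanned about 7-fold and the groups did not overlap (log2 fold change 3.96, SE 0.52, adjusted p = 0.000292). Cish, another STAT5-induced suppressor, was at 0.726 to 2.29 CPM in the young libraries and 8.9 to 23.5 CPM in the old (log2 fold change 2.98, SE 0.37, adjusted p = 0.000176). Socs1 had a log2 fold change of 0.74 (adjusted p = 0.00757). Il15ra, the chain that presents IL-15, had one of 1.24 (adjusted p = 0.0211), called in 7 of the 10 fits that each left out 1 library. Pim1, a STAT5-induced kinase, differed by 1.61 without passing the threshold (adjusted p = 0.0573).

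Genes of MHC class I presentation rose by modest amounts: 10 of 20 tested were higher and none lower, against 2.69% of all genes called higher. The count was 7 to 11 when each library was left out in turn and 11 without old replicate 4. The median was 0.64. H2-K1, a classical class I heavy chain, was at 1975, 1613, 1619, 2016 and 1662 CPM in young replicates 1 to 5 and 2811, 3583, 3747, 2751 and 2881 CPM in old replicates 1 to 5. Each old library was above all young ones (log2 fold change 0.83, SE 0.15, adjusted p = 0.00597). H2-D1, the other classical chain in this strain, gave 0.72 (adjusted p = 0.0176). Among the related class Ib genes, H2-Q10 went from 5.49 to 13.1 CPM in young to 38.3 to 94.1 CPM in old libraries (log2 fold change 2.84, SE 0.28, adjusted p = 2.03e-05), and H2-Q7 gave 1.02 (adjusted p = 0.000879). These genes are near-identical in sequence, so reads could be split between them in counting and their single values are uncertain. In the loading machinery, Psmb8, an immunoproteasome subunit, gave 0.87 (adjusted p = 0.00597), the peptide-loading factor Tapbp 0.74 (adjusted p = 0.0109) and the transporter Tap1 0.63 (adjusted p = 0.0284, called in 5 of the 10 fits that each left out 1 library). B2m, the invariant light chain and most abundant member, did not differ past the threshold (0.18, adjusted p = 0.55). None of 34 interferon-stimulated genes but Gbp7 passed (0.52, adjusted p = 0.0425, called in 1 of the 10 such fits).

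Several other programs showed 1 changed gene each, against 3.84% of all genes called; such shares lie close to that background. Of 21 cell cycle inhibitors and senescence genes tested, Cdkn1a, the inhibitor p21, rose. It was at 3.04, 3.63, 7.99, 16.5 and 5.94 CPM in young replicates 1 to 5 and 24.9, 21.6, 79.6, 61.9 and 24.1 CPM in old replicates 1 to 5, with every old library above every young one (log2 fold change 2.51, SE 0.48, adjusted p = 0.00756). Spry2, a feedback inhibitor of receptor tyrosine kinase signalling, was the single call among 16 MAPK regulators (log2 fold change 2.46, SE 0.54, adjusted p = 0.0172). Its level in old replicate 1 was 656 CPM, and leaving that library out moved the log2 fold change to 1.51. Hspa1b, an inducible heat shock protein, was the single call among 12 chaperones (log2 fold change 3.95, SE 0.80, adjusted p = 0.0101; 2 were called without old replicate 4), and reads may be shared with its near copy Hspa1a. Ier3 was the single call among 17 AP-1 and immediate-early genes (2.29, adjusted p = 0.0242), and Pmaip1, the BH3-only protein Noxa, among 19 apoptosis regulators (1.16, adjusted p = 0.0211); each call held in 7 of the 10 fits that left out 1 library. Without old replicate 4, 3 apoptosis regulators were higher. Without the filter on low counts, 8 AP-1 and immediate-early genes and 3 MAPK regulators were called higher. With the replicate number as a block in the fit, 6 and 3 were called higher.

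Of 22 DNA methylation and chromatin genes tested, 3 fell and 1 rose (4 and none without old replicate 4), with a median of -0.22. Among all genes tested, 1.15% were called lower and 2.69% higher. Smc4, a core subunit of condensin, was at 1441, 1335, 1932, 2269 and 2023 CPM in young replicates 1 to 5 and 545, 421, 579, 1005 and 577 CPM in old replicates 1 to 5. Its old values were all lower, with replicate 4 nearest to the young range (log2 fold change -1.53, SE 0.23, adjusted p = 0.000896). The de novo DNA methyltransferase Dnmt3a (-0.86, adjusted p = 0.0385), the methylcytosine dioxygenase Tet3 (-0.64, adjusted p = 0.0422) and the maintenance methylation factor Uhrf1 (1.10, adjusted p = 0.0301) passed, but in 3 of the 10, 2 of the 10 and 3 of the 10 fits that each left out 1 library. In T cell receptor signalling, 30 of 32 tested genes did not pass the threshold, with a median of -0.01. The 2 that did were Dgka, a kinase that ends diacylglycerol signals (-0.78, adjusted p = 0.0141), and Ubash3a, a phosphatase-like inhibitor of receptor signals (0.79, adjusted p = 0.0141). Without old replicate 4, 1 was higher and 2 were lower.

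Among growth and metabolic programs there were few calls, where 3.84% of all genes tested were called. No call or 1 call in such a list lies close to that share and is no result about the list. None of 26 proliferation genes passed in edgeR (median 0.59), where 8 had an unadjusted p under 0.05, all higher, and DESeq2 called 2. None of 16 glycolytic, 16 cholesterol synthesis, 36 cytosolic ribosomal protein or 10 circadian clock genes passed in edgeR. Of these, 4, 2, 12 and 0 had an unadjusted p under 0.05, and DESeq2 called 1 clock gene and none of the others. The ribosomal protein genes had a median log2 difference of -0.30. As a share of all counts they were 13.6% ± 1.58 in young and 10.9% ± 1.82 in old libraries (SD, n = 5 each; exact two-sided permutation test p = 0.0476, adjusted over 6 library properties 0.143, where 0.00794 is the smallest p that 5 against 5 allow). In oxidative phosphorylation Ndufv2 was the single call of 35 (0.73, adjusted p = 0.0497, called in 3 of the 10 fits that each left out 1 library) and in fatty acid oxidation Cpt1a of 17 (0.90, adjusted p = 0.0291, called in 5 of the 10 such fits and not without old replicate 4).

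Of the genes with the highest and lowest changes, some belonged to none of these programs. Spats2, at 5.33, 1.45, 3.55, 3.22 and 2.29 CPM in young replicates 1 to 5 and 63.4, 41.9, 74.1, 12.1 and 95.7 CPM in old replicates 1 to 5, was higher in every old library, with replicate 4 again the lowest of the old (log2 fold change 4.02, SE 0.47, adjusted p = 8.38e-05). Kcnk5, a background potassium channel, was at 0.726 to 4.11 CPM in the young libraries and 18.2 to 30 CPM in the old (log2 fold change 3.23, SE 0.38, adjusted p = 9.62e-05). Lrrk1, a leucine-rich repeat kinase, was at 7.99 to 16.3 CPM in the young libraries and 75.3 to 119 CPM in the old (log2 fold change 3.05, SE 0.22, adjusted p = 1.29e-06), and the calcium-binding protein gene S100a6 at 195 to 251 CPM in the young libraries and 932 to 2116 CPM in the old (log2 fold change 2.82, SE 0.20, adjusted p = 1.29e-06). Among the lowest, Atp1b1, the beta subunit of the sodium pump, was at 48.7, 51.5, 57.7, 38.3 and 44.3 CPM in young replicates 1 to 5 and 4.4, 5.72, 1.36, 1.34 and 4.7 CPM in old replicates 1 to 5. Every old library was at far below the lowest young one (log2 fold change -3.75, SE 0.33, adjusted p = 6.32e-06). Slc28a2b, of a nucleoside transporter family, was at 16.7 to 27.9 CPM in the young libraries and 0.636 to 5.38 CPM in the old (log2 fold change -3.42, SE 0.44, adjusted p = 0.000231); reads may be shared with its near copy Slc28a2. Also lower were Tmem108 (-2.78, adjusted p = 4.46e-06), the cyclophilin gene Ppic (-2.57, adjusted p = 0.00117), Cxxc5, a zinc-finger protein that binds unmethylated CpG (-2.13, adjusted p = 0.00207), Ephx1, a microsomal epoxide hydrolase (-2.11, adjusted p = 0.00407), the pseudokinase gene Trib2 (-1.99, adjusted p = 0.00472) and the ciliary transport gene Ift80 (-1.89, adjusted p = 0.000831). The calls for the 12 highest and 12 lowest genes were kept in each fit that left out 1 library. These genes were picked as called and without overlap between the ages, so this is no independent check of them.

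Whether these age changes were larger in virtual memory cells than in other CD8 cells was tested with interaction terms over 23 libraries, 13232 genes tested. CPM values here come from that joint scaling. The age change in virtual memory cells exceeded that in memory cells for 403 genes (3.05%) and was below it for 113 (0.854%), 3.9% of genes in all. Against naive cells it was above for 22 genes (0.166%) and below for 75 (0.567%). Both contrasts use the same virtual memory libraries and are given side by side. The counts depended on single libraries: against memory cells they were 169 without young memory replicate 3, 178 without old memory replicate 3, 242 without old memory replicate 1, 337 without young virtual memory replicate 1 and 1033 without old memory replicate 2. Against naive cells they were 158 without old virtual memory replicate 4, 55 and 62 without young naive replicates 1 and 3, and 57 and 61 without old naive replicates 1 and 2. The young memory libraries were rich in RNA of other cells: summed erythroid markers were 18949 to 40978 CPM in young and 3345 to 12684 CPM in old memory libraries, macrophage markers 4585 to 12083 and 572 to 3615, and natural killer cell markers 1639 to 3769 and 868 to 1012. In virtual memory libraries erythroid markers were 594 to 968 CPM in young and 750 to 13344 CPM in old. The part of these RNAs in the comparison with memory cells was not tested. The log2 age change of Cd8a itself was -0.02 in virtual memory, 1.16 in memory and 0.30 in naive cells. Virtual memory and memory cells differed in it by -1.18 (SE 0.29, adjusted p = 0.0241), a call that was lost without 3 single memory libraries.

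Itga1, Socs2, Fcgrt and Spats2 rose in virtual memory cells beyond both other subsets. For Itga1, the log2 age change was 3.67 in virtual memory, -0.03 in memory and 0.78 in naive cells. It differed by 3.70 (SE 0.43, adjusted p = 2.84e-05) from memory and by 2.89 (SE 0.41, adjusted p = 0.000296) from naive cells. Old virtual memory libraries held 35.8 to 80.2 CPM of Itga1, old memory libraries 16.5 to 22.5 CPM and old naive libraries 12.4 to 21.2 CPM, so the ranges did not overlap between virtual memory and memory cells. For Socs2, the changes were 3.94 in virtual memory, -0.07 in memory and 0.39 in naive cells, with differences of 4.01 (SE 0.65, adjusted p = 0.00104) from memory and 3.55 (SE 0.72, adjusted p = 0.013) from naive cells. Fcgrt, the neonatal Fc receptor that recycles IgG, gave 2.38 in virtual memory, -0.60 in memory and -0.67 in naive cells. Its differences were 2.99 (SE 0.39, adjusted p = 0.000104) and 3.05 (SE 0.38, adjusted p = 4.37e-05) in the same order. For Spats2, they were 3.73 (SE 0.84, adjusted p = 0.0134) and 3.09 (SE 0.72, adjusted p = 0.0367); the call against naive cells held in 10 of the 23 fits that each left out 1 library, and that against memory was lost without young memory replicate 3.

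For other genes, the age change exceeded that in memory cells, while the difference from naive cells did not pass the test. Fgl2 gave 4.59 in virtual memory, 0.42 in memory and 5.46 in naive cells, with differences of 4.17 (SE 0.40, adjusted p = 2.15e-06) from memory and -0.87 (SE 0.54, adjusted p = 0.75) from naive cells. In young naive libraries Fgl2 was at 0.422 to 0.859 CPM, and in old ones at 26.8 to 39.7 CPM. Gzmb gave 3.92 in virtual memory, 0.45 in memory and 5.36 in naive cells, with differences of 3.47 (SE 0.52, adjusted p = 0.000601) and -1.44 (SE 0.57, adjusted p = 0.41). In old libraries, Gzmb was at 41.8 to 159.9 CPM in virtual memory, 67.2 to 127 in memory and 116 to 167 in naive cells, so the old subsets overlapped in level. In the young, memory cells held more, at 53 to 78.7 CPM against 3.31 to 13.5 in virtual memory cells. S1pr5 gave 4.40 in virtual memory, -0.94 in memory and 3.72 in naive cells, with differences of 5.34 (SE 0.75, adjusted p = 0.00027) and 0.68 (SE 2.39, adjusted p = 0.98); young naive libraries held at most 0.429 CPM. The age changes of Fcgr2b (5.04, SE 0.51, adjusted p = 2.29e-06) and Klrk1 (2.86, SE 0.54, adjusted p = 0.00498) were also above those in memory cells. For Fcgr2b the difference was larger than its rise in virtual memory cells in their own fit (3.90). For Lrrk1 and S100a6 the change was above that in memory cells (2.52, SE 0.31, adjusted p = 4.35e-05, and 1.55, SE 0.30, adjusted p = 0.00628) and below that in naive cells (-2.10, SE 0.40, adjusted p = 0.00768, and -1.32, SE 0.30, adjusted p = 0.0315); the call for S100a6 against naive cells held in 12 of the 23 fits that each left out 1 library. Gzmk rose in all 3 subsets, by 4.10 in virtual memory, 3.61 in memory and 5.73 in naive cells (adjusted p for memory = 0.00043, for naive = 6.27e-08), and neither difference passed (adjusted p = 0.81 and 0.65).

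**Figure D4:**
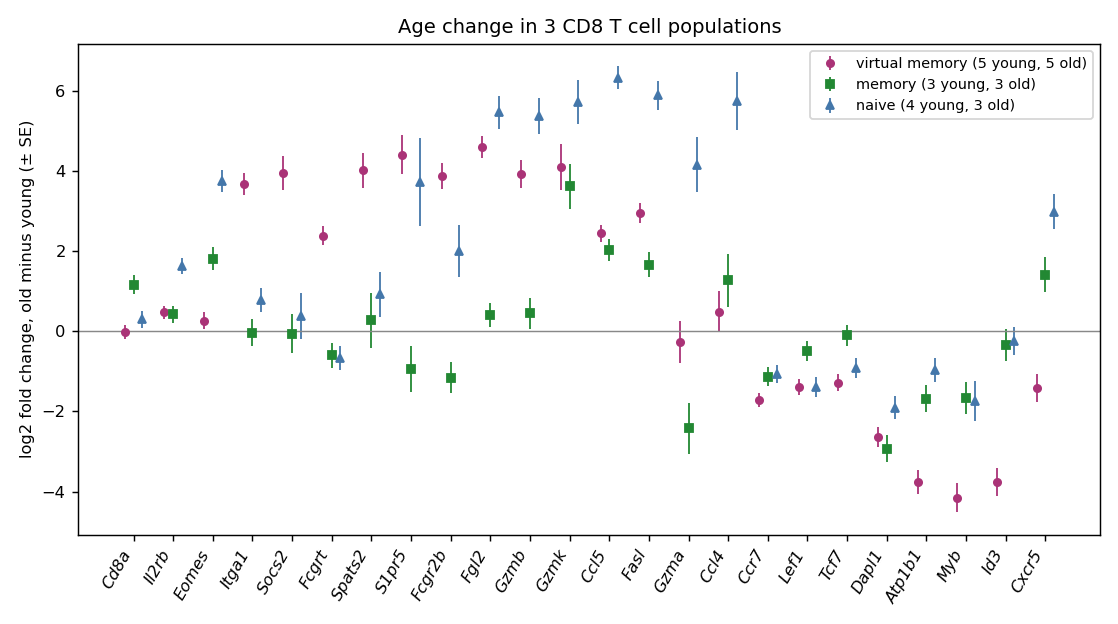
Log2 age change, old minus young (y axis), of 24 genes (x axis) in CD8 virtual memory, memory and naive cells, from the joint fit over 23 libraries. Points are estimates and bars their standard errors; Itga1 and Socs2 are high in virtual memory cells only among the 3 subsets, and the naive value of Ccl5 is the highest point at 6.32.

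Cells sorted as naive changed more than virtual memory cells in some effector genes. Markers of other cells moved with age in the naive libraries too: summed natural killer cell markers were 67.6 to 85.8 CPM in young and 629 to 816 CPM in old naive libraries, and markers of innate-like and gamma delta T cells 20 to 30.8 and 309 to 337 CPM. The part of these RNAs in the comparison with naive cells was not tested. Ccl5 gave 2.44 in virtual memory, 2.03 in memory and 6.32 in naive cells, a difference of -3.88 (SE 0.32, adjusted p = 6.19e-08) between virtual memory and naive cells. It was at 424 to 475 CPM in young and 29834 to 42042 CPM in old naive libraries. Fasl gave 2.95 in virtual memory, 1.66 in memory and 5.88 in naive cells, with a difference of -2.94 (SE 0.43, adjusted p = 0.00031) from naive cells. Eomes gave 0.26 in virtual memory, 1.81 in memory and 3.76 in naive cells, and the virtual memory change was below both others, with differences of -1.55 (SE 0.35, adjusted p = 0.0145) from memory and -3.50 (SE 0.34, adjusted p = 7.94e-07) from naive cells. The first call was lost without young memory replicate 3 or old memory replicate 1. Ccl4 (-5.25, SE 0.85, adjusted p = 0.00117), Gzma (-4.42, SE 0.86, adjusted p = 0.00929) and Il2rb (-1.14, SE 0.26, adjusted p = 0.0296) also changed less than in naive cells, the last in 13 of the 23 fits that each left out 1 library. The carbohydrate sulfotransferase gene Chst2 had a difference of -5.16 (SE 1.04, adjusted p = 0.0119). For Lmo1, a LIM-domain factor gene, it was -5.99 (SE 1.43, adjusted p = 0.0435), called in 11 of the 23 such fits. Both were at under 1 CPM in every young naive library. Dmrta1 had no count in the 4 young naive libraries, so its fitted difference depends on the prior count and is no bound.

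Among genes that fell, Id3 and Atp1b1 did so beyond both other subsets. Id3 gave -3.75 in virtual memory, -0.34 in memory and -0.25 in naive cells, with differences of -3.41 (SE 0.52, adjusted p = 0.000619) from memory and -3.51 (SE 0.48, adjusted p = 0.000187) from naive cells. Atp1b1 gave -3.76 in virtual memory, -1.68 in memory and -0.96 in naive cells, with differences of -2.09 (SE 0.46, adjusted p = 0.0123) and -2.80 (SE 0.42, adjusted p = 0.000422), the first of which was lost without old memory replicate 1. Myb fell more than in memory cells (-2.48, SE 0.54, adjusted p = 0.0121), and its difference from naive cells did not pass the test (-2.41, SE 0.64, adjusted p = 0.0991). The age change of Cxcr5 was -1.42 in virtual memory, 1.41 in memory and 2.99 in naive cells, and the virtual memory change was below both others (-2.83, SE 0.56, adjusted p = 0.00657 for memory; -4.41, SE 0.55, adjusted p = 4.37e-05 for naive). For Tcf7 the difference from memory cells was -1.18 (SE 0.33, adjusted p = 0.0441), called in 9 of the 23 fits that each left out 1 library, and that from naive cells did not pass the test (-0.36, SE 0.32, adjusted p = 0.86). For Ccr7 and Lef1 no difference from memory or naive cells passed (adjusted p = 0.31 and 0.50 for Ccr7, 0.12 and 1 for Lef1).

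Against memory cells, the highest differences among genes with at least 20 CPM in a group belonged to Sowaha (6.63, adjusted p = 0.0203), Sh2d1b1 (6.31, adjusted p = 0.0123), Trim10 (6.31, adjusted p = 0.0154), Styk1 (6.29, adjusted p = 0.00134) and Rab3il1 (6.16, adjusted p = 0.0259). Of these, Sowaha, Sh2d1b1, Trim10 and Rab3il1 were no longer called without old replicate 4. In that order, their calls held in 19, 22, 21 and 18 of the 23 fits that each left out 1 library. Styk1, which encodes a receptor-like kinase, was at 1.42 to 4.57 CPM in young and 4.77 to 74.8 CPM in old virtual memory libraries, against 5.22 to 16.8 and 0.591 to 2.61 CPM in memory libraries. The lowest differences included Trim30c (-5.93, adjusted p = 0.0228), Lrg1 (-3.85, adjusted p = 0.0236) and Lratd1 (-2.49, adjusted p = 0.0123), and the calls for Trim30c and Lrg1 were lost without single memory libraries.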

How the data were processed

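Gene counts of 10 spleen CD8 virtual memory libraries (5 young, 5 old) and of 13 CD8 memory and naive libraries were read from 1 table deposited by the authors; the values are raw counts per gene, not normalized. The libraries were 3'-biased poly(A) libraries with an index of 8 bases and a unique molecular identifier of 10 bases, per the labels' protocols. Samples were separated with sabre 80faf94, per the labels' protocols, and STAR and featureCounts 2.0.1 with build GRCm38.p6 (mm10) are named in the submitters' processing notes. No source used here states a collapse of these identifiers, so counts may include amplified copies.

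The counts were tested with edgeR 4.0.16 quasi-likelihood fits in R 4.3.3 (TMM scaling, filterByExpr with a minimum count of 10 and total of 15, Benjamini-Hochberg adjustment over all genes tested, threshold 0.05). The difference between subsets was an interaction contrast over 6 groups. CPM were computed from the scaled library sizes. Gene positions came from GENCODE M21 and promoters from the RefSeq table for GRCm38.p6, in which 7403 tested genes were found. The members, gene lists and rules were chosen with earlier results of these data known. Named genes were the markers, the 12 highest and 12 lowest changes and the 6 lowest p per direction among called genes with at least 20 CPM and no overlap. Up to 4 called and the 2 most abundant members of each list, and the 5 highest and 5 lowest differences between subsets, were also named; other list members were named after their values were seen. Of the list genes, 5 were not found in the table, and some members are counted but not reported here by name. On simulated data for the main comparison (10346 genes, 200 changed), 49% of 2-fold and 94% of 4-fold changes were recovered with 4.03% false calls. For the difference from memory (13232 genes), 6% and 52% were recovered with 3.33% false calls, and from naive 8% and 41% with 7.55% false calls. The simulated spread followed the fitted trend over expression level, without a spread of each gene's own or a library like old replicate 4. These rates therefore need not hold for the real libraries. Total counts per library ranged from 1301782 to 6821886, and the median SE of a log2 fold change was 0.26. Single values per library were compared with exact permutation tests over 252 splits. Alternatives were RLE scaling, no filter, a stricter filter, DESeq2 1.42.0, other sets of libraries, the replicate number as a block and leaving out each library.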

Additional observations from a re-analysis of the deposited data

Results flagged for a closer look

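In groups of 5 libraries, 1 library stood far from the other 4 in 50 of 380 groups tested, by a gap over 0.71 of the group's range. The groups were genes named by the rule other than ribosomal protein genes, library properties and marker sums. About 1 in 20 groups of independent, normal values would pass this limit. CPM need not be normal and the groups share genes and libraries, so that rate is no measure of chance here. In 31 of the 50 it was old replicate 4. Its summed markers, in CPM against the range of the other 4 old libraries, were 2910.4 for plasma cells (87.7 to 159), 15612 for neutrophils (9251 to 10469), 2278 for macrophages and monocytes (886 to 943), 13193 for erythroid cells (732 to 2234), 848 for natural killer cells (496 to 570.1) and 272 for CD4 T cells (54.7 to 95.5). Immunoglobulin genes gave 6.55% of its counts against 0.0677% to 0.21%. Globin genes gave 1.23% of its counts against 0.0657% to 0.22%. Genes in which it stood apart, each against the other 4 old libraries, were Fcgrt (78 CPM against 221 to 246), Serpina3g (126 CPM against 21.7 to 46.6), Slc28a2b (5.38 CPM against 0.636 to 1.76), Smc4 (1005 CPM against 421 to 579), Zeb2 (47.1 CPM against 11.1 to 19.7), Trib2 (76.6 CPM against 17 to 27.6), Slamf6 (74.6 CPM against 12.9 to 23.5), Car2 (328 CPM against 19.7 to 32.7), Jchain (2461 CPM against 17.7 to 76.3), Hba-a1 (1469 CPM against 93.9 to 290.0), Hbb-bs (8296 CPM against 408 to 1393), Hbb-bt (1957 CPM against 91.6 to 302), Hmgb2 (403 CPM against 262 to 298), Xbp1 (255 CPM against 36.4 to 52.5), Tyrobp (294 CPM against 123 to 154), Trat1 (50.4 CPM against 4.45 to 16.8), Cd74 (459 CPM against 25.9 to 111), Lyz2 (2141 CPM against 841 to 921), S100a9 (2877 CPM against 1693 to 1939.7), S100a8 (5977 CPM against 3719.9 to 4084), Chst2 (26.2 CPM against 0.587 to 6.36), Itga4 (118 CPM against 5.08 to 30.9) and Lrg1 (71.9 CPM against 25 to 33.5).

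Other single libraries stood apart from the 4 of their own age in Fasl in old replicate 3 (231 CPM against 112 to 130.3), Ly6a in young replicate 4 (27.2 CPM against 37.9 to 42.1), Cish in young replicate 2 (0.726 CPM against 1.98 to 2.29), Actn1 in young replicate 5 (349 CPM against 86 to 158), Ift80 in young replicate 1 (25.9 CPM against 39.5 to 43.9), Tcf7 in old replicate 2 (542 CPM against 381 to 412), Slamf7 in old replicate 2 (162 CPM against 84.1 to 105), Serpinb9 in old replicate 2 (94.7 CPM against 41.4 to 51.8), Spry2 in old replicate 1 (656 CPM against 58.7 to 186), H2-D1 in young replicate 1 (2149 CPM against 1436 to 1583), Itgb2 in young replicate 2 (230.1 CPM against 163 to 176), Pim1 in old replicate 3 (3599 CPM against 962 to 1196), Bcl2 in old replicate 5 (1461 CPM against 666 to 859.7), Trim30a in old replicate 1 (365 CPM against 213 to 254), Per1 in young replicate 4 (45.1 CPM against 9.89 to 20), Aldoa in young replicate 1 (453 CPM against 263 to 305), Cd69 in young replicate 4 (505 CPM against 222 to 272) and Bst2 in old replicate 2 (30.5 CPM against 66.4 to 72.8). Young replicate 1 was also sequenced deeper, with 6821886 counts against 1433143 to 2838158.

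Listed here are 28 genes whose age change in virtual memory cells differed from that in memory cells (interaction test in edgeR, adjusted p under 0.05). They are the 5 highest and 5 lowest called differences, picked because they passed, and passing members of a set of 38 genes checked. The count is therefore no share of the named genes. Of all genes tested, 3.9% were called. The log2 difference was above 0 for S100a6 (1.55), Lrrk1 (2.52), Klrk1 (2.86), Fcgrt (2.99), Gzmb (3.47), Itga1 (3.70), Spats2 (3.73), Socs2 (4.01), Fgl2 (4.17), Fcgr2b (5.04), S1pr5 (5.34), Rab3il1 (6.16), Styk1 (6.29), Trim10 (6.31), Sh2d1b1 (6.31) and Sowaha (6.63). It was below 0 for Trim30c (-5.93), Lrg1 (-3.85), Id3 (-3.41), Cxcr5 (-2.83), Lratd1 (-2.49), Myb (-2.48), Trib2 (-2.10), Atp1b1 (-2.09), Ppic (-2.04), Eomes (-1.55), Tcf7 (-1.18) and Cd8a (-1.18). Sowaha, Sh2d1b1, Trim10 and Rab3il1 were not called without old replicate 4, and Trim10 and Rab3il1 then gave 3.82 and 3.46.

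Picked in the same way, 22 genes had an age change in virtual memory cells that differed from that in naive cells (interaction test in edgeR, adjusted p under 0.05). This count is no share of the named genes either, and 0.733% of all genes tested were called. The log2 difference was above 0 for Itga1 (2.89), Fcgrt (3.05), Spats2 (3.09), Socs2 (3.55) and Gcnt2 (3.66). It was below 0 for Lmo1 (-5.99), Dmrta1 (-5.32), Ccl4 (-5.25), Chst2 (-5.16), Gzma (-4.42), Cxcr5 (-4.41), Ccl5 (-3.88), Id3 (-3.51), Eomes (-3.50), Fasl (-2.94), Atp1b1 (-2.80), Actn1 (-2.61), Lrrk1 (-2.10), Ephx1 (-1.95), Tmem108 (-1.64), S100a6 (-1.32) and Il2rb (-1.14). Actn1 was called in 14 and Ephx1 in 9 of the 23 fits that each left out 1 library, and without old naive replicate 2 Actn1 gave -1.68 (adjusted p = 0.32). The value of Dmrta1 rests on young naive libraries with no count and is no bound.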

How the results depend on the processing

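The 397 calls became 900 without a filter on low counts, 696 with DESeq2 and 659 in the fit over all CD8 subsets, and 269 to 432 when each library was left out in turn. For the difference from memory, 516 calls became 968 without a filter, 261 in a fit of virtual memory and memory cells only, and 169 (without young memory replicate 3) to 1033 (without old memory replicate 2) when each library was left out. For the difference from naive cells, 97 calls became 292 without a filter, 167 with DESeq2, and 55 (without young naive replicate 1) to 158 (without old virtual memory replicate 4) when each library was left out. The cause of these shifts was not tested. The share of T cell receptor segment genes, lower by 0.472 percentage points in old libraries (adjusted p = 0.143), differed by -0.593 without young replicate 5 (adjusted p = 0.0476) and by as little as -0.402 without another library. With RLE scaling 69.7% of calls were higher, against 70.0%, and no result changed sign with a call. Libraries with the same number correlated at 0.22, 0.15, 0.095, 0.19 and 0.091 in their deviations from the group means, all above 0. Some fell under 0.1, the limit set for pairs, and the numbers were not taken as pairs. Even so, 4 of the 5 young libraries correlated best with the old library of their own number. Whether the number marks shared handling was not tested, and the main p-values take no account of it. With the replicate number as a block, 548 genes were called between the ages, 340 for the difference from memory and 116 for that from naive cells; in the AP-1 and immediate-early list it called 6 genes higher against 1. The median SE was 0.26, and 2-fold changes were recovered in 49% of simulated cases, drawn from genes of all levels. Smaller differences that did not pass the threshold may have gone undetected. The part of sequencing depth in this was not tested.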

Other observations

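Genes outside the T cell programs gave further differences, listed as values. Cd22, an inhibitory receptor best known from B cells, rose from 5.94 ± 0.896 to 30.2 ± 9.44 CPM (SD, n = 5 each; log2 fold change 2.34, SE 0.28, adjusted p = 0.000107), and by 2.37 without old replicate 4. None of the other 5 tested B cell markers passed the threshold. Zbtb7b, which encodes the CD4 lineage factor ThPOK and is also induced in CD8 effector cells, rose from 4.36 ± 2.33 to 14.8 ± 3.40 CPM (1.82, SE 0.37, adjusted p = 0.0101), and by 1.83 without old replicate 4. Cd4 itself was at most 3.20 CPM in every library except old replicate 4, where it was 38.3. Tnfrsf18, the costimulatory receptor GITR, was the single tested gene of the regulatory T cell list and rose by 0.94 on the log2 scale (adjusted p = 0.0314), called in 3 of the 10 fits that each left out 1 library. Among dendritic cell markers, Xcr1 was higher with Itgax (1.39, adjusted p = 0.0214, 1.45 without old replicate 4), called in 4 of the 10 such fits. Among plasma and erythroid markers, Jchain, Hba-a1 and Car2 passed with log2 fold changes of 4.46, 2.37 and 3.10. Without old replicate 4 they gave 0.95, 0.97 and 1.31, and in the 10 fits that each left out 1 library they were called in 4, 3 and 5. Without that library no plasma marker and 1 erythroid marker were called higher, and 2 CD4 T cell markers were called lower. None of the tested macrophage, innate-like T cell or stromal markers passed in edgeR or DESeq2 (3, 2 and 1 tested, of which 1 each had an unadjusted p under 0.05), and no platelet marker reached the filter. The 7 tested MHC class II genes had a median of 1.36, with 2 at an unadjusted p under 0.05 and none past the threshold in edgeR or DESeq2; without the filter on low counts 5 were called higher. Without old replicate 4 the log2 difference of Cd74 went from 1.44 to 0.14, and that of H2-Ab1 was 0.40. Of 10 tissue residency genes tested, Itga1 and Cxcr6 were higher and none lower, against 2.69% of all genes called higher. Of 17 unfolded protein response genes tested, Manf alone passed in edgeR (0.66, adjusted p = 0.0497), against 2.69% of all genes called higher. In this list 9 genes had an unadjusted p under 0.05, all higher, and the median log2 difference was 0.51. DESeq2 called 2 of them higher, and 4 were called higher without the filter on low counts. Manf was called in 1 of the 10 fits that each left out 1 library and not without old replicate 4 (0.52, adjusted p = 0.1).

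The constant chains of the T cell receptor, looked at after the data were seen, did not move together. Trac was at 8088, 11195, 8017, 8383 and 2120.0 CPM in young replicates 1 to 5 and 5489.5, 3405, 2459, 1569 and 2680.0 CPM in old replicates 1 to 5. Young replicate 5 lay among the old values, and the difference did not pass the threshold (log2 -1.28, adjusted p = 0.0686). For Trbc1 and Trbc2 the differences were -0.10 and -0.23.

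Neutrophil markers differed between the sorted populations. On the joint scale they summed to 8991 to 15791 CPM in virtual memory libraries of either age, 592 to 909 CPM in young memory and 25.7 to 117 CPM in young naive libraries. In old memory libraries they ran from 751 to 17799 CPM and in old naive libraries from 70.0 to 1268 CPM. The differences between populations and between ages were not compared by a test. The sort gates are not given in the sources used here.

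In the joint fit, which called 426 genes higher and 233 lower with age in virtual memory cells, 56 of the higher genes were also called higher in memory cells. That is 13.1% of the virtual memory list and 24.9% of the 225 memory genes. With naive cells 153 were shared, 35.9% of the virtual memory list and 35.7% of the 429 naive genes. Of the lower genes, 22 were shared with memory (9.44% and 6.04%) and 51 with naive cells (21.9% and 32.7%). Over all 13232 genes tested, 3.22% were called higher and 1.76% lower in virtual memory, 1.70% and 2.75% in memory and 3.24% and 1.18% in naive cells. In the opposite direction, 13 genes higher in virtual memory cells were lower in memory cells and 2 lower ones were higher; for naive cells it was 1 and 1. These lists come from separate libraries, but from 1 fit with a common spread.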
